A study of Rattus norvegicus with 4 samples.

Results

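Astrocyte-rich spots were taken from a spatial transcriptome of the rat trigeminal nerve, with 250 such spots among the 6773 spots on tissue. A spot was eligible when it had at least 2000 unique molecular identifiers (UMIs) and no more than 1 UMI in the sum of Slc32a1, Slc6a5, Gad1 and Gad2, genes of inhibitory neurons. These conditions left 6151 spots, after 150 were set aside for too few UMIs and 472 for inhibitory neuron UMIs. The 250 eligible spots with the highest sum of Mlc1, Fabp7, Cxcl14, Itih3 and Aldh1l1 were kept, in CPM, which is the UMIs of a gene scaled to the same total in every spot. The spots were therefore chosen from measured values, and every level set against the remaining spots below is a description with no test.

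Astrocytes are the glial cells of the central nervous system that clear transmitter and potassium from the extracellular space, couple to each other through gap junctions and cover vessels and the outer surface with their endfeet. In cranial nerves they extend with oligodendrocytes into the root, as far as a transition zone beyond which Schwann cells make the myelin. In the trigeminal system this zone lies between the pons and the ganglion, in the part of the root that is compressed in models of trigeminal neuralgia (TN). Astrocytes that respond to injury are known for more intermediate filament, complement and metallothionein transcripts.

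The tissue came from adult male Sprague-Dawley rats, a wild-type outbred strain, with chronic compression of the trigeminal root on a single side. Capture areas TN1, TN2 and TN3 each held compressed-side tissue of 1 animal, 3 animals in all, with ganglion, root and nearby branches. Uncompressed tissue of 2 animals shared a single area, the healthy control (HC). By the series description the HC tissue is the other side of animals that also gave TN tissue, whereas the methods name sham-operated controls. TN and HC carry no transgene, and the age beyond adulthood was not used here. HC was taken as 1 sample, since its spots are not assigned to animals, so condition and capture area cannot be told apart. A spot covers several cells, and a higher level can come from more cells of a type or from more RNA per cell, which cannot be told apart either.

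With this rule most of the spots lay in 2 of the 4 areas. TN3 held 153 of them, which is 7.98% of its 1917 spots (95% exact binomial confidence interval 6.81% to 9.29%). TN2 held 83, or 6.61% of 1256 spots (5.30% to 8.13%). TN1 held 12, or 0.756% of 1587 spots (0.391% to 1.32%), and HC held 2, or 0.0994% of 2013 spots (0.0120% to 0.358%). These intervals cover counting error only and treat spots as independent, although the spots kept were ranked together over all areas. How much of the central root each section took in was not measured here. The counts of TN1 and HC moved with the score, to 26 and 27 with a mean of log2 levels, 24 and 20 without Cxcl14 and 61 and 34 when 500 spots were kept, and TN2 and TN3 held most of the spots in each case. TN1 and HC had fewer than 20 such spots, so levels were compared with the other spots of the same area in TN2 and TN3, and values of TN1 and HC are given for some genes and lists only. The values of HC rest on 16219 UMIs of 2 spots, in which a few UMIs set a level.

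**Figure D1:**
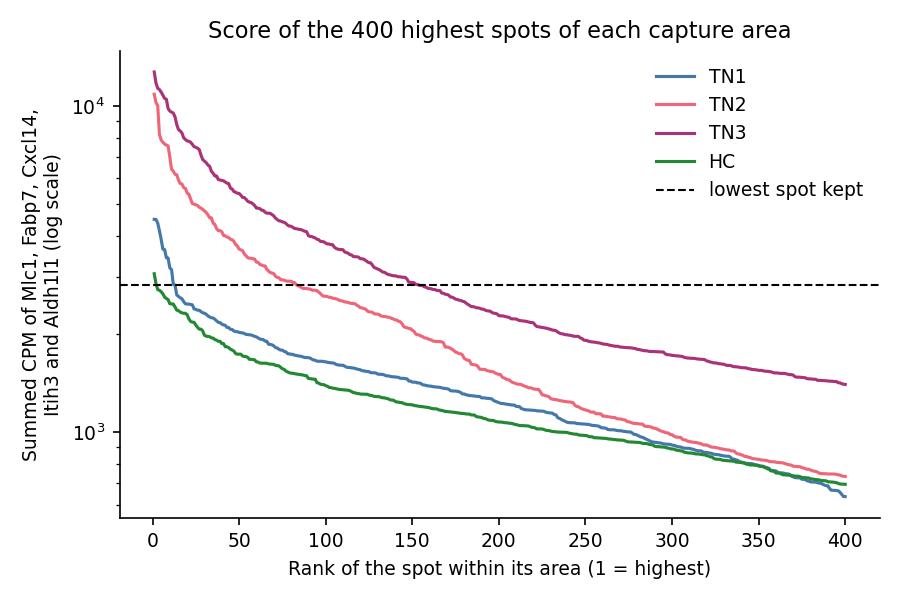
Summed CPM of the 5 scoring genes (vertical axis, log scale) of the 400 highest eligible spots of each capture area, by rank within the area. The dashed line is the lowest spot kept, at 2834 CPM, and the curves of TN2 and TN3 cross it after 83 and 153 spots, those of TN1 and HC after 12 and 2.

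The areas had 23546025 (TN1), 38769935 (TN2), 32239597 (TN3) and 41335930 (HC) UMIs in all. The astrocyte-rich spots contributed 78229, 1079117, 2223911 and 16219 of these. In TN2 they were shallower than the rest, with a median of 10391 against 32092 UMIs and of 3100.0 against 5912 genes, while in TN3 the medians were close, with 13705 against 14505 UMIs. Mitochondrial genes took 9.78% of their UMIs in TN2 and 8.32% in TN3, against 7.76% and 7.44% in the other spots. In the 12 spots of TN1 the share was 16.8% against 11.6%, with a median of 4963 UMIs. The barcode of a spot encodes its position, and 2337 of the 3573 barcodes occurred in more than 1 area, as areas use the same positions.

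The scores ran from 2834 to 12723 CPM. The lowest spots kept had 2834 and 2835 CPM and the highest left out had 2827 and 2823 CPM, so the limit lies on a continuous course of scores. Of the 250 spots, 80 had a UMI of all 5 scoring genes and 143 of 4 of them. Mlc1 had a UMI in 247 spots, Fabp7 in 249, Cxcl14 in 244, Itih3 in 221 and Aldh1l1 in 86. Cxcl14, Fabp7 and Mlc1 therefore made up most of the score, with 37.5% of its UMIs from Cxcl14, 32.4% from Fabp7 and 20.3% from Mlc1, while Itih3 gave 9.06% and Aldh1l1 0.766%.

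Mlc1, a membrane protein of astrocyte endfeet that takes part in cell volume control, was at 895 (TN1), 1056 (TN2), 1147 (TN3) and 678 CPM (HC), against 115, 68.3, 66.7 and 98.1 CPM in the other spots. Fabp7, the fatty acid binding protein of radial glia and astrocytes, was at 920.4 (TN1), 1771 (TN2), 1797 (TN3) and 1356 CPM (HC), against 145, 115, 144 and 162 CPM in the other spots. Cxcl14, a chemokine, was at 499 (TN1), 1798 (TN2), 2233 (TN3) and 432 CPM (HC), against 74.5, 335, 387 and 17.6 CPM in the other spots. All 3 were higher in the chosen spots of every area, and Cxcl14 was lower in the chosen spots of TN1 and HC than in those of TN2 and TN3. Itih3, a heavy chain of the inter-alpha-trypsin inhibitor that binds hyaluronan, was at 1087 (TN1), 451 (TN2), 496 (TN3) and 369.9 CPM (HC), against 161, 34.8, 20.2 and 18.6 CPM in the other spots. Aldh1l1, the folate dehydrogenase used as a general astrocyte marker, was at 153 (TN1), 34.3 (TN2), 40.9 (TN3) and 123 CPM (HC), against 8.1, 3.74, 2.4 and 8.08 CPM in the other spots. Both of these were highest in the few spots of TN1, where Itih3 was also high in the other spots. When the spots were chosen on a random part of the UMIs and measured in the rest, Mlc1 stood at 948 CPM in TN2 and 1124 CPM in TN3, against 70.5 and 69.8 CPM in the other spots.

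The label was checked against 25 further astrocyte genes that the score did not use. A gene was called when it was 2-fold or more higher, or lower, in both TN2 and TN3 (log2 ratio of CPM plus 1), among 10238 genes with at least 200 UMIs in these areas. By this rule 357 genes were higher (3.49% of those tested) and 658 lower (6.43%). The numbers were 154 and 275 when spots were chosen by a mean of log2 levels, and 168 and 310 when spots were thinned to 2000 UMIs. Of the 25 astrocyte genes, 18 passed the UMI minimum, of which 14 were higher and 0 lower. Their median log2 ratio was 1.63, beside -0.17 over all genes. Oligodendrocyte and microglia genes, described below, had medians of 2.15 and 1.67, so such a shift was not particular to astrocyte genes. Gfap, the intermediate filament of astrocytes, was at 3093 (TN1), 8029 (TN2), 8401 (TN3) and 6412 CPM (HC), against 376, 591, 720.3 and 1015 CPM in the other spots, a mean log2 ratio of 3.65 ± 0.15 (SD, n = 2 areas). It had a UMI in all 250 spots, but also in 96.1% of the 2937 other spots of TN2 and TN3. Aqp4, the water channel of the endfeet, was at 1917 (TN1), 1301 (TN2), 1123 (TN3) and 1665 CPM (HC), against 212, 122, 89.1 and 228 CPM in the other spots, with a log2 ratio of 3.52 ± 0.17. Aqp4 was detected in 246 spots against 61.2% of those other spots. Gfap and Aqp4 thus marked the spots in all 4 areas, although Gfap was lowest and Aqp4 highest in TN1.

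Other members of the list that met the 2-fold rule were the angiotensin precursor Agt (659.8 and 559 CPM against 83.8 and 53 CPM in TN2 and TN3), the zinc transporter Slc39a12 (109 and 25.6 CPM against 6.13 and 1.8 CPM), the neurotensin receptor Ntsr2 (108 and 74.6 CPM against 11.1 and 5.26 CPM) and the tight junction protein Cldn10 (35.2 and 18.9 CPM against 7.96 and 2.9 CPM). Aldolase C (Aldoc) had 1259 and 1464 CPM against 529 and 429.7 CPM and the sphingosine phosphate receptor S1pr1 25 and 18.9 CPM against 8.01 and 4.43 CPM. Members that passed the minimum and were not called included Glul, Gpr37l1 and Gjb6. Their log2 ratios were 0.79, 0.54 and 0.44. The astrocyte genes Slc1a2, Kcnj10, Hepacam, Slc4a4, Fgfr3, Sox9 and Bmpr1b did not reach 200 UMIs in the 2 areas and were not judged.

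**Figure D2:**
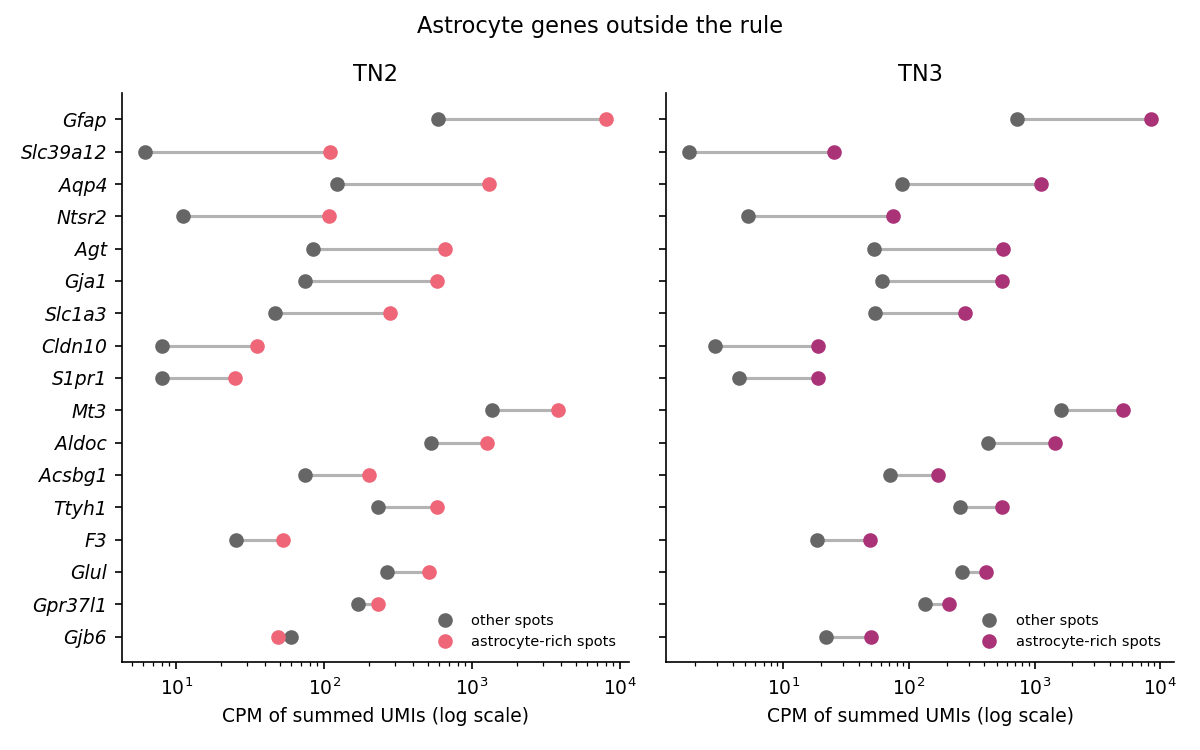
Levels of astrocyte genes outside the score that passed the UMI minimum, in CPM of summed UMIs (log scale), in the astrocyte-rich spots (coloured points) and all other spots (grey points) of TN2 and TN3. Of these, 14 were 2-fold or more higher in both areas, and Gjb6 lay on different sides of the other spots in TN2 and TN3.

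The remaining astrocyte functions were examined in groups. Among genes of water, ion and volume control, 3 of 5 tested were higher, namely Aqp4, the sodium pump subunit Atp1b2 (316 and 417 CPM against 63.1 and 67.6 CPM) and Ttyh1 (581 and 556 CPM against 232 and 253 CPM). Among genes of transmitter uptake, 4 of 5 were higher. These included the glutamate transporter Slc1a3 (279.9 and 281 CPM against 46.7 and 54.1 CPM), the glycine transporter Slc6a9 (199 and 95.3 CPM against 32.7 and 19.6 CPM) and the glutamine transporter Slc38a3 (77.8 and 75.5 CPM against 32.1 and 29.2 CPM). The gene of glutamine synthetase, Glul, was not called.

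Of 4 connexin genes tested, 2 were higher. Gja1, the main gap junction protein of astrocytes, was at 577 CPM in TN2 and 552 CPM in TN3, against 74.4 and 60.9 CPM in the other spots. Gjb6 lay lower in TN2 and higher in TN3, with 49.1 and 49.9 CPM against 59.4 and 22.1 CPM. In lipid and sugar metabolism 4 of 6 genes were higher, led by the lipid carrier clusterin (Clu), at 4342 CPM in TN2 and 3917 CPM in TN3, against 949 and 716 CPM in the other spots, and Pla2g7, an enzyme that degrades platelet-activating factor, at 626 CPM in TN2 and 237 CPM in TN3, against 36.8 and 23.6 CPM in the other spots. Apoe, the apolipoprotein that astrocytes, macrophages and satellite glia all make, was nearly level, at 13378 CPM in TN2 and 13744 CPM in TN3, against 12809 and 12263 CPM in the other spots.

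Families related to the scoring genes differed in their counts. Of 7 genes of folate and aldehyde dehydrogenase metabolism tested, 2 were higher, Aldh1a1 (102 and 65.7 CPM against 36.7 and 18.3 CPM) and Aldh6a1 (110.3 and 114 CPM against 40.5 and 51.4 CPM), and 0 lower, with a median log2 ratio of 0.95. Of 3 genes of the inter-alpha-inhibitor and hyaluronan list tested, Tnfaip6 was higher. Of the other 4 fatty acid binding proteins, Fabp4, the form of adipocytes and capillary endothelium, was higher (133 and 33.7 CPM against 13.4 and 12.1 CPM), Fabp3 and the peripheral myelin protein Pmp2 were lower, and Fabp5 was not called. The call of Pmp2 ended with Fabp7 left out of the score, at a log2 ratio of 0.040. Of 4 chemokine and receptor genes related to Cxcl14, none (0) was called, among them Cxcl12 (23.2 and 35.1 CPM against 30.5 and 25.9 CPM) and its receptor Cxcr4 (14.8 and 15.3 CPM against 26 and 27.1 CPM). The secreted matrix protein Sparcl1 (2119 and 2427 CPM against 524 and 333 CPM) and the phosphatase receptor Ptprz1 (144 and 103 CPM against 29.5 and 26.9 CPM) were the 2 of 6 matrix genes called, and the related Sparc was not called (1816 and 2181 CPM against 2799 and 2954 CPM). Of 5 glial transcription factors tested, Id4 alone was higher (42.6 and 40.0 CPM against 15.7 and 15.1 CPM). None (0) of 14 transcription factors that mark brain regions reached the minimum, and their summed level was 23.2 CPM in TN2 and 20.7 CPM in TN3, against 6.26 and 2.9 CPM in the other spots, with Irx5 the most counted in TN2 and Irx1 in TN3.

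All 4 metallothionein genes, which encode small proteins that bind zinc and copper, were 2-fold or more higher in TN2 and TN3. Mt2A was at 460.2 (TN1), 1194 (TN2), 1600.3 (TN3) and 247 CPM (HC), against 54.4, 75.5, 112 and 53.5 CPM in the other spots, a log2 ratio of 3.89 ± 0.10 (SD, n = 2 areas). Mt1 was at 959 CPM in TN2 and 1356 CPM in TN3, against 139 and 224 CPM in the other spots, and Mt3, the form of brain, at 3801 CPM in TN2 and 5029 CPM in TN3, against 1356 and 1624 CPM in the other spots. Mt1m had low levels, at 18.5 CPM in TN2 and 19.8 CPM in TN3, against 1.99 and 2.5 CPM in the other spots. The sum of the 4 genes was 5972 CPM in TN2 and 8006 CPM in TN3, against 1572 and 1964 CPM in the other spots. In TN1 it was 4167 against 2706 CPM, and in the 2 spots of HC it was lower than in the other spots, at 2281 against 3338 CPM, with Mt3 at 2035 against 3205 CPM and Mt1 at 0. The chosen spots of TN2 and TN3 thus had a higher Mt2A level than those of TN1 and HC. Mt1, Mt1m and Mt2A are close copies, and how reads shared between them were counted could split their values. Some metallothionein genes are known to respond to zinc through short metal response elements. The bases before the start sites of Mt2A and Mt1 are shown for this reason, with those of Mt3 beside them, a choice made after the values had been seen. Each line gives the 250 bases before the RefSeq start, 5′ to 3′ on the minus strand of GRCr8, at chr19:10838709-10838958 for Mt2A, chr19:10832976-10833225 for Mt1 and chr19:10856081-10856330 for Mt3, and capitals mark matches to TGCNCNC on either strand:
Mt2A: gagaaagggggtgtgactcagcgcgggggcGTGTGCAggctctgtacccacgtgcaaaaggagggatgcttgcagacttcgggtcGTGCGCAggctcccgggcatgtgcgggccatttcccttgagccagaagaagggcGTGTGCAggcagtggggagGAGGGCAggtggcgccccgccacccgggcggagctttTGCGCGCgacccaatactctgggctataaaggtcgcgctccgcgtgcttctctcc
Mt1: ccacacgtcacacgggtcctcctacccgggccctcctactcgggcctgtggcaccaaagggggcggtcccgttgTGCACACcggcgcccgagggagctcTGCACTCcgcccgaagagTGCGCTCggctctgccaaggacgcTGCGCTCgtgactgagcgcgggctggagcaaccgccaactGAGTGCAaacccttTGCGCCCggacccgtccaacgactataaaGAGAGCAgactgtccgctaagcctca
Mt3: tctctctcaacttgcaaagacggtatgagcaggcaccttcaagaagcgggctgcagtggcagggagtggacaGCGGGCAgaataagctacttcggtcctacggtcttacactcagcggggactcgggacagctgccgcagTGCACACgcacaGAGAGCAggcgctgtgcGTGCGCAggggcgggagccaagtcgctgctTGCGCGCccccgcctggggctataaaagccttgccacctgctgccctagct

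Matches were counted by distinct start position, and neighbouring ones can overlap. Mt1 had 7 such matches and Mt2A and Mt3 had 5 each, whereas 43.4% of 33469 rat promoter windows of this length had at least 1 and 0.370% had 5 or more. Upstream bases were found for 47 of the 70 named genes that were higher in the spots. Of these, 26 had a match to TGCNCNC. The nuclear factor I palindrome had 0 matches among the 47 and was found in 0.0359% of all windows, and TTCNNNGAA, the STAT palindrome, was found before Ntsr2 and Acsbg1 and in 7.67% of all windows. Among the scoring genes, Cxcl14 had 4 matches, Mlc1 3, Fabp7 and Aldh1l1 1 each and Itih3 0, and Gfap had 0. A match describes the letters of the window, with any base allowed at N. It does not show that the window holds a metal response element or that a factor binds there.

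Outside every list, the genes with the largest ratios included further genes of astrocytes. Slc14a1, a urea transporter, was at 166 CPM in TN2 and 231 CPM in TN3, against 10.6 and 17.1 CPM in the other spots, and Aqp9, a channel for water and glycerol, at 34.3 CPM in TN2 and 38.2 CPM in TN3, against 2.26 and 1.9 CPM in the other spots. Lcat, an enzyme that esterifies cholesterol on lipoproteins, was at 502 CPM in TN2 and 756 CPM in TN3, against 45.4 and 67.7 CPM in the other spots, and Fam107a at 183 CPM in TN2 and 316 CPM in TN3, against 22 and 24.5 CPM in the other spots. In the 2 spots of HC, Slc14a1 was also higher, at 308 against 19.2 CPM. Lcat was there at 61.7 against 50.0 CPM, from 1 UMI, Aqp9 at 0 against 3.99 CPM and Fam107a at 0 against 17.0 CPM. Cystathionine beta-synthase (Cbs) had 80.6 and 124 CPM against 9.29 and 11.9 CPM, the cystine exchanger Slc7a11 133 and 90.4 CPM against 11.9 and 12.8 CPM and the glutamate receptor subunit Grin2c 51 and 48.1 CPM against 8.2 and 3.6 CPM. Among them, genes with high counts are known from oligodendrocytes, transferrin (Tf), at 4803 CPM in TN2 and 5144 CPM in TN3, against 433 and 540.2 CPM in the other spots, and the protease Klk6, at 926 CPM in TN2 and 342 CPM in TN3, against 71.8 and 74 CPM in the other spots. Gpr84, a receptor of activated microglia, was at 25 CPM in TN2 and 22 CPM in TN3, against 2.04 and 2.57 CPM in the other spots. Meltf, Lratd1, Ca14, Cldn9 and AABR07030823.1 completed the 15 with the largest ratios. The genes with the smallest ratios included the neuronal elongation factor Eef1a2, at 37.1 CPM in TN2 and 26.1 CPM in TN3, against 411 and 204 CPM in the other spots, and the synaptic vesicle protein Syt2, at 9.27 CPM in TN2 and 0.45 CPM in TN3, against 37.3 and 25.8 CPM in the other spots, with Crisp3, Sytl3 and Exoc1l.

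Markers of other cell types moved with the astrocyte genes, and their part in the differences above was not tested. Of 9 oligodendrocyte genes, 8 were higher in the spots, and their summed level was 2652 CPM in TN2 and 1351 CPM in TN3, against 499 and 459.5 CPM in the other spots, with Mag the most counted. The myelin glycoprotein gene Mog was at 332 (TN1), 319.7 (TN2), 156 (TN3) and 986 CPM (HC), against 139.6, 51.6, 47.4 and 136 CPM in the other spots, and the lineage factor Olig2 at 51.9 CPM in TN2 and 38.2 CPM in TN3, against 6.71 and 5.76 CPM in the other spots. Opalin and Mobp, both confined to central myelin, had 91.7 and 43.2 CPM against 22.5 and 6.33 CPM and 467 and 194 CPM against 71 and 66.9 CPM. Among oligodendrocyte precursor genes, Pdgfra and Cspg4 had log2 ratios of -0.03 and -0.28, and C1ql1 alone was called, at 144 CPM in TN2 and 225 CPM in TN3, against 24.6 and 15 CPM in the other spots. C1ql1 encodes a secreted C1q-like protein.

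Schwann cell and neuron genes lay on the other side. The 7 Schwann myelin genes summed to 5288 CPM in TN2 and 11422 CPM in TN3, against 22177 and 36625 CPM in the other spots, and 5 of them were lower. Pmp2, a fatty acid binding protein of peripheral myelin, was at 38.3 (TN1), 91.7 (TN2), 201 (TN3) and 61.7 CPM (HC), against 253, 327, 414 and 154 CPM in the other spots, a difference that depended on Fabp7 in the score, as given above. All 7 sensory neuron genes tested were lower, with a sum of 709.8 CPM in TN2 and 682 CPM in TN3, against 3996 and 2931 CPM in the other spots, and Prph the most counted. Of 6 central excitatory and general neuron genes tested, 5 were lower. Snap25, which is not confined to central neurons, was at 243 CPM in TN2 and 116 CPM in TN3, against 673 and 549 CPM in the other spots. The genes that the rule used to limit inhibitory neurons were at 8.34 CPM in TN2 and 1.35 CPM in TN3, by the choice of spots. No endothelial, pericyte or ependymal gene was called (0 of 6, 4 and 1 tested), and Cldn5, a tight junction gene of brain vessels, had 90.8 and 111 CPM against 96 and 109 CPM. Of 7 fibroblast and meningeal genes 3 were lower, and Ptgds, which meninges and oligodendrocytes express, differed in direction, with 3135 and 3609.9 CPM against 3775 and 1340.1 CPM. Of 5 genes of the glia limitans, the astrocyte layer at the surface, Myoc was lower (51 and 127 CPM against 312 and 446 CPM) and the other genes were not called.

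Microglia genes were higher and macrophage genes were not. Of 7 microglia genes tested 6 were called higher, with a sum of 1116 CPM in TN2 and 1448 CPM in TN3, against 388 and 459.7 CPM in the other spots. Csf1r, the receptor that microglia need to survive, was at 335 CPM in TN2 and 431 CPM in TN3, against 103 and 117 CPM in the other spots, and Sall1, a factor specific to microglia in brain, at 57.5 CPM in TN2 and 60.7 CPM in TN3, against 6.9 and 10.1 CPM in the other spots. Tmem119 (59.3 and 90.8 CPM against 21.7 and 19.8 CPM), Cx3cr1 (12 and 8.54 CPM against 2.65 and 2.8 CPM) and Aif1 were called too, and Trem2 was not, with log2 ratios of 0.98 in TN2 and 1.32 in TN3. None (0) of 5 macrophage genes was called, with Lyz2 at 535 CPM in TN2 and 753 CPM in TN3, against 1005 and 975 CPM in the other spots and Cd68 at 89.9 CPM in TN2 and 145 CPM in TN3, against 87.2 and 114 CPM in the other spots. The microglia sum in the 12 spots of TN1 was 499 CPM, against 258 CPM in its other spots.

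Genes of reactive astrocytes lay on both sides. Of 16 tested, 4 were higher and 1 lower, beside 3.49% and 6.43% of all genes, with a median log2 ratio of -0.14 beside -0.17 over all genes. The 4 were Gfap, the complement component C3 (169.6 and 345 CPM against 32.6 and 58.1 CPM), the copper oxidase ceruloplasmin (Cp, 112 and 140.3 CPM against 34.6 and 43.1 CPM) and lipocalin 2 (Lcn2, 23.2 and 18 CPM against 7.24 and 8.1 CPM). The direction of Lcn2 turned with the choice of spots, to log2 ratios of -0.41 with 500 spots kept, -0.12 with Cxcl14 left out of the score and -0.34 with spots thinned to 2000 UMIs. Vimentin (Vim), an intermediate filament of reactive astrocytes that Schwann cells, fibroblasts and macrophages also make, was at 4034 CPM in TN2 and 6523 CPM in TN3, against 5163 and 5759 CPM in the other spots. Nestin (Nes), a filament of progenitors and reactive glia, had 78.8 and 113 CPM against 176 and 163 CPM, and the inhibitor of metalloproteases Timp1 had 629 and 718 CPM against 505 and 517 CPM. Steap4 was the gene called lower. Nerve injury genes of sensory neurons and Schwann cells were lower for 3 of 5 tested, and the transcription factor Atf3 was at 116 CPM in TN2 and 93.5 CPM in TN3, against 264 and 182 CPM in the other spots.

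**Figure D3:**
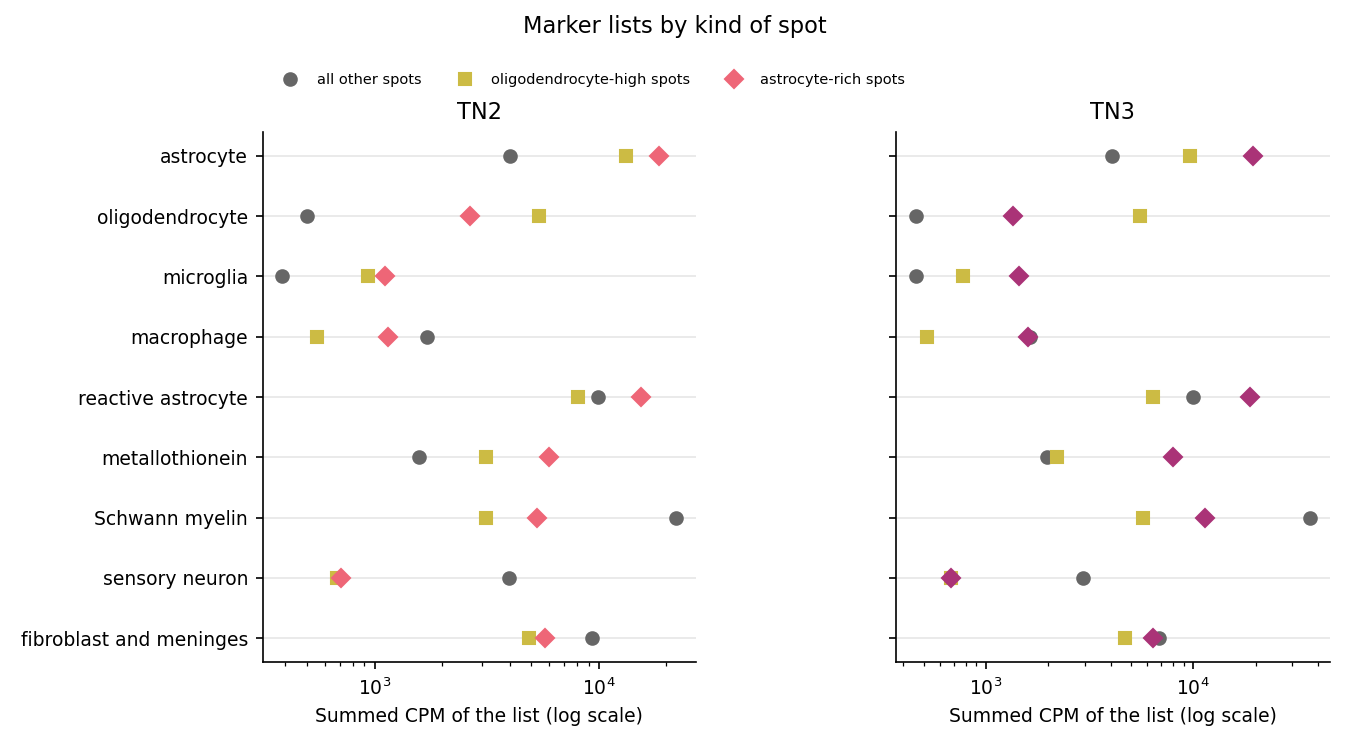
Summed CPM (log scale) of 9 marker lists in TN2 and TN3, in the astrocyte-rich spots (diamonds), in equal numbers of oligodendrocyte-high spots outside them (squares) and in all other spots (circles). The oligodendrocyte-high spots lie between the other spots and the astrocyte-rich spots for astrocyte genes, and below both for macrophage genes.

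The spots varied with their score. They were divided within each area into 3 classes of near equal size, top, middle and bottom, which are ranges of a continuous score. Gfap varied little, at 8581, 8031 and 7049 CPM from the top to the bottom class of TN2 and 9135, 8243 and 7436 CPM in TN3. In as many spots just below the limit it was still at 5196 and 3878 CPM, several times the level of all other spots. Mt2A had a steeper course, at 1464, 982 and 916 CPM in TN2 and 2208, 1379.8 and 905 CPM in TN3. C1ql1 was also highest in the top class, at 218, 83.6 and 68.9 CPM in TN2 and 323, 179.5 and 125.4 CPM in TN3. The oligodendrocyte sum ran the other way, at 2016, 3148 and 3308 CPM in TN2 and 1114, 1477 and 1577 CPM in TN3. The Schwann myelin sum differed between the areas. It was 6652, 4228 and 3876 CPM from top to bottom in TN2, and 8146, 12249 and 15589 CPM in TN3.

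**Figure D4:**
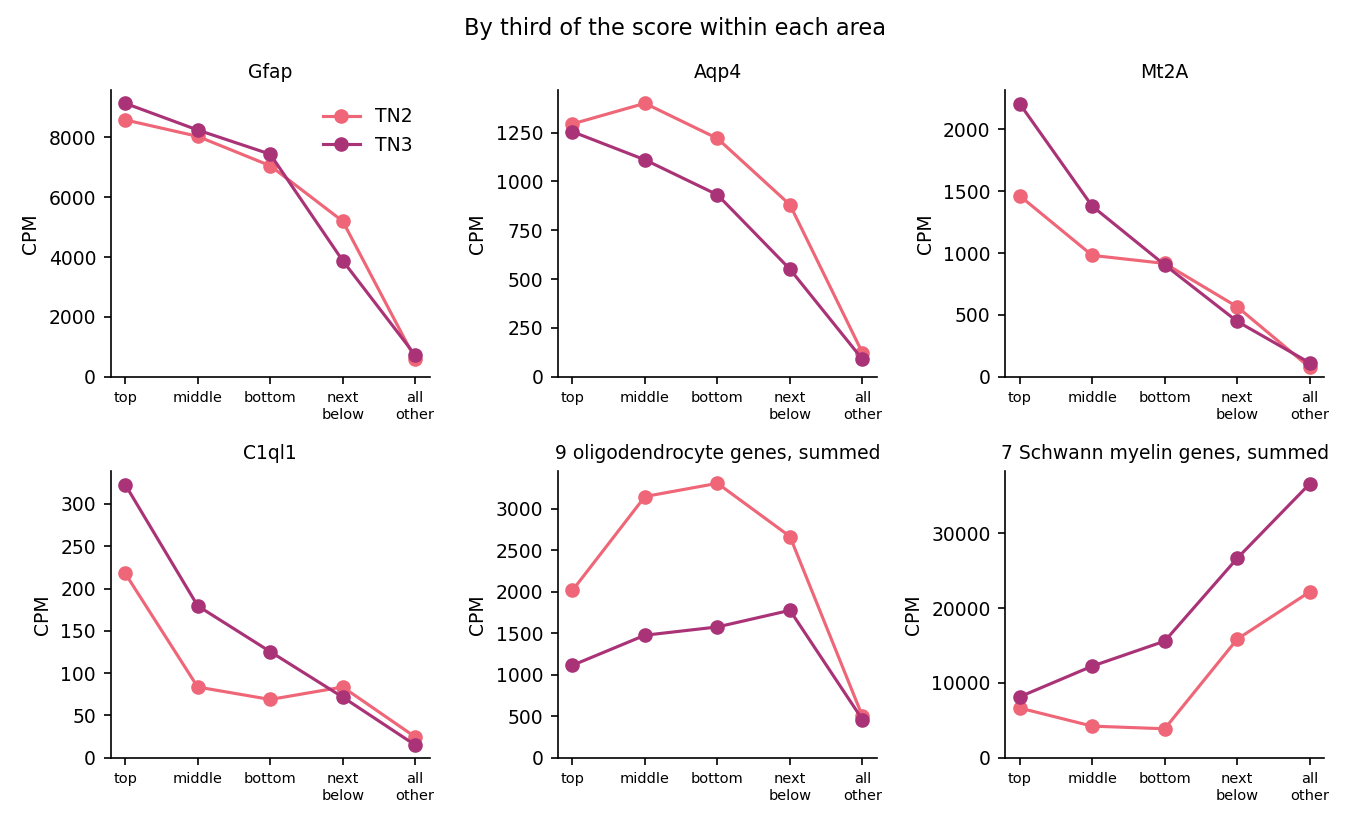
CPM of 4 genes and 2 summed lists (vertical axes, linear from 0) in the top, middle and bottom class of the astrocyte-rich spots by score, in as many spots next below the limit and in all other spots, for TN2 and TN3. Gfap and Mt2A decline along the score in both areas, and the Schwann myelin sum declines in TN2 and climbs in TN3 over the 3 classes.

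The gene that led the score also set spots apart. Fabp7 gave the most UMIs of the score in 118 of the 250 spots, Cxcl14 in 87, Mlc1 in 40 and Itih3 in 5. The Cxcl14-led spots were 26 in TN2 and 61 in TN3, and the Mlc1-led spots 12 and 23. Vim stood at 5884 CPM (TN2) and 8163 CPM (TN3) in Cxcl14-led spots, and at 1665 and 3995 CPM in Mlc1-led spots. Aqp4 had the opposite order, at 1152 and 877 CPM in Cxcl14-led and 2351 and 1725 CPM in Mlc1-led spots. The macrophage sum was 1452 and 2115 CPM against 461 and 953 CPM, and the oligodendrocyte sum 2162 and 932 CPM against 3521 and 1999.8 CPM. Gfap differed little between these groups, with 8355 and 7876 CPM against 8268 and 8456 CPM. Cxcl14-led spots were deeper, with medians of 11690 and 17785 UMIs against 8182 and 7267, and the part of depth in these differences was not tested.

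Because central glia occur together, the spots were also set against the part of the tissue most like them. For this, the 83 (TN2) and 153 (TN3) eligible spots with the highest level of the 9 oligodendrocyte genes were taken among the spots outside the astrocyte-rich group, a comparison chosen after the data had been seen and given with no test. These spots were shallower, with medians of 7691 (TN2) and 4401 (TN3) UMIs against 10391 and 13705, and the part of depth was not tested. Of the 10238 genes, 376 (3.67%) were 2-fold or more higher in the astrocyte-rich spots in both areas and 63 (0.615%) lower. These counts depended on the settings, with 146 higher and 29 lower at a pseudocount of 5. With TN2 or TN3 left out, 962 to 1488 genes 2-fold or more higher than in oligodendrocyte-high spots were counted, and 415 to 456 genes 2-fold or more lower than in oligodendrocyte-high spots. Of the 18 astrocyte genes, Slc39a12 and the tissue factor gene F3 were called higher and the other 16 were not, which does not show that they were equal. Aqp4 stood at 1301 and 1123 CPM against 1162 and 885 CPM and Gfap at 8029 and 8401 CPM against 5524 and 3537 CPM. None (0) of 5 genes of water, ion and volume control, 5 of transmitter uptake and 6 of lipid and sugar metabolism was called. Their median log2 ratios were 0.25, -0.11 and 0.72. The glycine transporter Slc6a9 was lower in both areas without a call, at 199 and 95.3 CPM against 333 and 289 CPM.

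The reactive astrocyte genes, in contrast, were called higher for 8 of 16, with a median log2 ratio of 1.24. Cp was at 112 and 140.3 CPM against 17.8 and 13.2 CPM, Vim at 4034 and 6523 CPM against 1126 and 1406 CPM, the hyaluronan receptor Cd44 at 87.1 and 96.7 CPM against 26.7 and 26.4 CPM, Timp1 at 629 and 718 CPM against 285 and 195 CPM and the complement inhibitor Serping1 at 383 and 462 CPM against 141 and 189.7 CPM. Mt1 (959 and 1356 CPM against 279 and 223 CPM) and Mt2A (1194 and 1600.3 CPM against 541 and 323 CPM) were called as well, while Mt3 (log2 ratios of 0.72 and 1.60) and Mt1m (0.30 and 3.16) were not. Of the macrophage genes 3 of 5 were higher, among them the class II invariant chain Cd74 (506 and 674 CPM against 248 and 208 CPM), while 0 of 7 microglia genes were called. The oligodendrocyte genes, by the choice of spots, were lower for 4 of 9, among them Mog (319.7 and 156 CPM against 809.7 and 905 CPM). The median log2 ratio of Schwann myelin genes was 0.95, with 0 of 7 called, and of fibroblast genes 0.83, with 1 of 7 called higher. It was -0.07 for endothelial and 0.17 for sensory neuron genes. The medians of some other cells thus lay above 0 beside the reactive genes, and their part was not tested.

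TN and HC were not compared on the 250 spots, as HC had 2 and TN1 had 12 of them, under the minimum of 20 set for an area. The 60 highest-scoring eligible spots of each area were summed instead, which gave 442218 (TN1), 827762 (TN2), 1063543 (TN3) and 670498 (HC) UMIs. They included 12, 60, 60 and 2 of the 250 spots, and their median scores were 2308, 4744, 6743 and 1976 CPM, so the tissue compared was not equal. With edgeR's quasi-likelihood test and Benjamini-Hochberg adjustment, 0 of 8085 genes (0% higher and 0% lower) passed an adjusted p of 0.05, and 339 had an unadjusted p under 0.05. The count of DESeq2 was 0 as well, with 187 genes at that unadjusted level. Without TN1, 477 genes were higher and 379 lower in TN. Without TN3 29 were higher and 2 lower, and without TN2 0 were called. The count thus depended on TN1 and, for a smaller number of genes, on TN3. In all 3 TN areas 25.2% of genes were higher than in HC and 23.2% lower, which is the background for the counts that follow, and levels are CPM after TMM normalization.

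For the general astrocyte genes Slc1a3, Aldoc and Gfap, HC lay within the range of the TN areas. Slc1a3 was at 386 (TN1), 284 (TN2), 286 (TN3) and 309.7 CPM (HC), and Aldoc at 2027 (TN1), 1367 (TN2), 1814 (TN3) and 1729.5 CPM (HC). Gfap was at 2832 (TN1), 8284 (TN2), 8890.3 (TN3) and 7053 CPM (HC) (log2 fold change -0.08, SE 0.69, edgeR adjusted p = 0.999), lowest in TN1 and with HC between TN1 and the other TN areas. Aqp4 was highest in HC, at 1483 (TN1), 1311 (TN2), 1255 (TN3) and 2066 CPM (HC) (log2 fold change -0.61, SE 0.36, edgeR adjusted p = 0.976). Of 21 astrocyte genes tested, 8 were higher than HC in all 3 TN areas and 2 lower, with a median log2 fold change of 0.23 beside 0.06 over all genes.

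Several reactive genes had another pattern, in which TN2 and TN3 stood above both TN1 and HC. Before TMM normalization, the reactive genes of the 60 spots summed to 4183 (TN1), 16705 (TN2), 21401 (TN3) and 7984 CPM (HC). In the spots outside the astrocyte-rich group they summed to 3973 (TN1), 9924 (TN2), 10008 (TN3) and 4000.1 CPM (HC). For this sum, TN2 and TN3 thus stood above TN1 and HC in both sets, while HC lay further above TN1 in the 60 spots. Of 15 tested, 9 were higher than HC in all 3 TN areas, with a median log2 fold change of 1.70, and 0 passed the adjusted test. Vim was at 402 (TN1), 4556 (TN2), 7478 (TN3) and 425 CPM (HC), Timp1 at 59.1 (TN1), 669 (TN2), 745 (TN3) and 48.7 CPM (HC) and Cp at 11.8 (TN1), 128 (TN2), 157 (TN3) and 7.86 CPM (HC) (log2 fold change 3.67, SE 1.49, edgeR adjusted p = 0.976). TN1 and HC had close values of these genes, and TN2 and TN3 were several times higher. Hspb1, a small heat shock protein, followed them, at 258 (TN1), 1267 (TN2), 1720.0 (TN3) and 220.1 CPM (HC). Mt2A was at 374 (TN1), 1269 (TN2), 2082 (TN3) and 369 CPM (HC) (log2 fold change 1.75, SE 0.95, edgeR adjusted p = 0.976), and Mt1 at 300.4 (TN1), 1058 (TN2), 1782 (TN3) and 365 CPM (HC), with TN1 close to or below HC. C3 lay higher in all 3 TN areas, at 179.8 (TN1), 162 (TN2), 360.0 (TN3) and 91.2 CPM (HC). The edgeR adjusted p of Vim, Cp and Mt2A depended on the area left out, in fits with 1 residual degree of freedom that assume the single HC area to vary like TN. For Vim it was 5.4e-25 without TN1, 0.9996 without TN2 and 0.152 without TN3. For Cp it was 6.24e-15 without TN1, 0.9996 without TN2 and 0.0131 without TN3. For Mt2A it was 3.31e-10 without TN1, 0.9996 without TN2 and 0.9998 without TN3. TN1, whose omission gave the smallest values, is the TN area nearest to HC for these genes. The 60 spots of TN1 also had more transcripts of central excitatory and general neuron genes. Before TMM normalization their sum was 1486 (TN1), 317 (TN2), 209 (TN3) and 374 CPM (HC), and their part was not tested.

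Other cells moved with these genes. All 4 macrophage genes tested were higher than HC in the 3 TN areas, with Cd74 at 232 (TN1), 520.1 (TN2), 755 (TN3) and 61.3 CPM (HC) (log2 fold change 3.04, SE 0.80, edgeR adjusted p = 0.976). Of 6 microglia genes 4 were, with Csf1r at 175 (TN1), 332 (TN2), 444 (TN3) and 148 CPM (HC), and of 7 Schwann myelin genes 5 were, with Pmp2 at 75.7 (TN1), 90.7 (TN2), 145 (TN3) and 50.3 CPM (HC). Of 7 fibroblast genes 5 were, and of 4 nerve injury genes 3. Of 9 oligodendrocyte genes 5 were lower in all 3 TN areas, with Mog at 405 (TN1), 273 (TN2), 131 (TN3) and 635 CPM (HC). Sensory neuron genes were lower in all 3 for 5 of 7 and endothelial genes for 3 of 5. Cxcl14, a gene of the score, was itself at 319 (TN1), 2058 (TN2), 3209 (TN3) and 138 CPM (HC). When spots were chosen without Cxcl14, a choice added after the data had been seen, Vim stood at 389.8, 4400.1, 7169 and 405 CPM in the same order of areas, and 0 genes were called with edgeR, with 322 at an unadjusted p under 0.05. In simulated counts of this design, the 3 TN areas shared the same mean for each gene. Calls were made for 1.72% of genes with a log2 change of 1, 34.4% with 2 and 69.8% with 3, beside 2 false calls. Differences of these sizes could thus be missed. For genes such as Vim, with TN1 near HC, the simulation did not hold this spread between TN areas, and its shares do not apply to them.

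**Figure D5:**
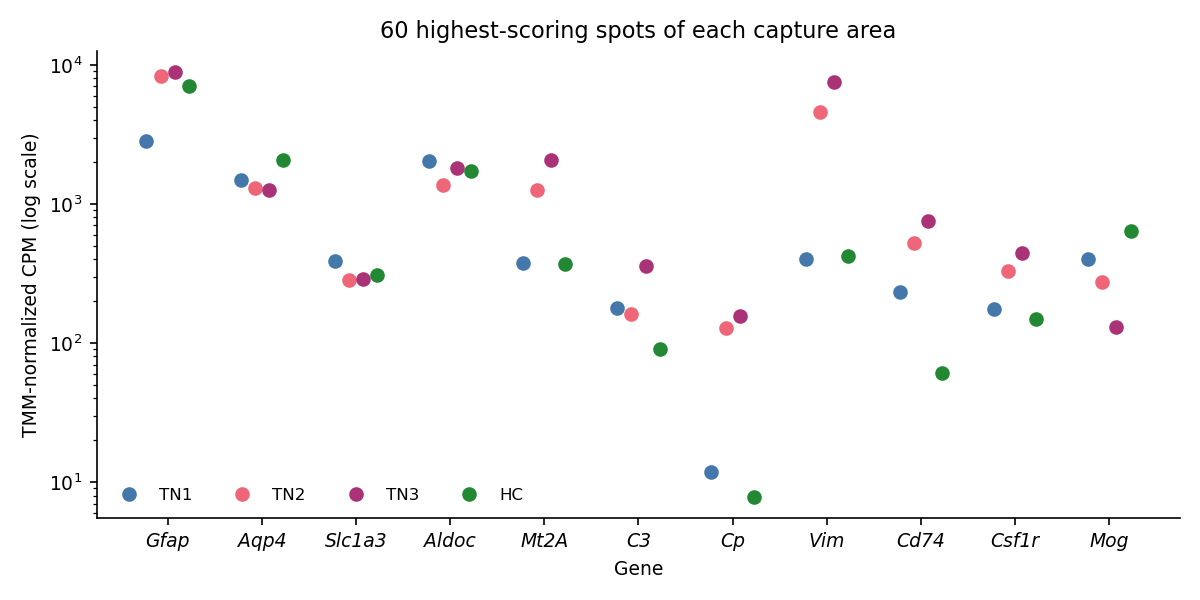
TMM-normalized CPM (log scale) of 11 genes in the summed 60 highest-scoring spots of TN1, TN2, TN3 and HC, 1 point per area. For Vim, Cp and Mt2A the points of TN2 and TN3 lie above those of TN1 and HC, whereas the 4 points of Slc1a3 and of Aldoc lie close together.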

How the data were processed

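The authors prepared 10 μm cryosections on Visium capture areas and used Space Ranger 1.2.0 to count UMIs, and the submitters' processing notes also name STAR. Genome build and annotation: not given in the sources used here. Deposited counts are whole numbers for 32623 genes and 6773 spots. Whether areas were brought to a like depth when joined is not stated, which bears on the UMI totals. The number after a barcode was matched to an area by the order of capture areas in the series description. The members, the gene lists and the tests were chosen with earlier results of these data known. Of 240 list genes, 232 were found once by symbol.

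UMIs were summed over spots within an area and scaled to CPM, and ratios used a pseudocount of 1. Named were the scoring and limiting genes, every list gene, and the 15 largest and 5 smallest mean ratios outside the lists. For TN against HC, the quasi-likelihood test of edgeR 4.0.16 was run on area sums in R 4.3.3, after filterByExpr and TMM normalization, with 2 residual degrees of freedom. HC gives no spread of its own, and the test assumes that it varies like TN. It also treats the areas as independent, although by the series description HC and TN share animals. Spots were not taken as replicates. The test was also tried on simulated data. Alternatives changed the UMI minimum, the limit, the number and scoring of spots, the pseudocount, the filter, the scaling (DESeq2 1.42.0) and the areas. Promoter letters are from RefSeq (GRCr8). Some genes of the lists are counted in them but not reported here by name. No doublet caller was applied to spots, and images were not used.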

Additional observations from a re-analysis of the deposited data

How the results depend on the processing

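The number of spots per area (12, 83, 153 and 2 in TN1, TN2, TN3 and HC) followed the rule. It was 3, 37, 85 and 0 with the smallest number of spots kept, and 61, 158, 247 and 34 with 500. In TN1 and HC alone it moved to 5 and 5 with the highest UMI minimum, 26 and 27 with a mean log2 score, 24 and 20 without Cxcl14 and 25 and 9 with spots thinned to 2000 UMIs. TN1 had 19 without Fabp7, and HC had 4 when spots were chosen on a random part of the UMIs. TN2 and TN3 held most of the spots in each of these settings. Genes higher and lower than in the other spots (357 and 658) came to 192 and 262 with 500 spots, 154 and 275 with a mean log2 score, 203 and 402 without Cxcl14 and 168 and 310 with thinning. With a pseudocount of 5 the lower genes were 394. Leaving out TN2 or TN3 gave 396 to 498 higher and 698 to 1243 lower genes. The 14 higher astrocyte genes came to 9 with 500 spots.

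The 376 genes 2-fold or more higher than in oligodendrocyte-high spots became 146 with a pseudocount of 5 and 962 to 1488 with 1 area left out. The 63 genes 2-fold or more lower than in oligodendrocyte-high spots became 29 and 415 to 456. Of 1933 values of 98 named genes under these settings, 1571 moved by less than the spread, 358 moved more and 4 changed sign. Lcn2 went to a log2 ratio of -0.41 with 500 spots, -0.12 without Cxcl14 and -0.34 with thinning, and Pmp2 to 0.040 without Fabp7. The cause was not tested. The 0 calls between TN and HC held for DESeq2, DESeq2 size factors in edgeR, no filter, 30 or 120 spots per area, a score without Fabp7 or Cxcl14 and without mitochondrial, ribosomal and hemoglobin genes, and leaving out 1 TN area gave 0 to 477 higher and 0 to 379 lower genes. Gfap changed sign without TN1, to 0.26.

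The TN against HC test on the 250 spots and its alternatives were not run, as HC had 2 spots, under the minimum of 20. No paired analysis was possible because HC pools 2 animals whose spots are not assigned to them, so its tissue could not be matched to the TN area of the same animal. Genes with few UMIs, such as Slc1a2 and Kcnj10, were not judged. Kcnj10 had 0 UMIs in the astrocyte-rich spots, and the cause was not tested. Depth also limits the 2 HC spots, with 16219 UMIs.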

Other observations

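Summed blood genes differed in direction between TN2 and TN3, whereas the further genes set against the other spots here had the same direction in both. The 5 blood genes summed to 455 CPM in TN2 and 283 CPM in TN3, against 149.5 and 434 CPM in the other spots, and the neutrophil genes S100a8 and S100a9 had 39.8 and 49.1 CPM in the astrocyte-rich spots of TN2, against 6.1 and 8.07 CPM in its other spots. In TN3 they had 5.85 and 9.44 CPM against 11.7 and 17.5 CPM. Calb1, a calcium-binding protein of several neuron types, was higher in both areas (46.3 and 54.9 CPM against 18.7 and 16.8 CPM), whereas the cerebellar gene Gabra6 was at 4.63 and 0 CPM against 8.54 and 0.267 CPM. Tnfaip6, which transfers inter-alpha-inhibitor heavy chains to hyaluronan, was called higher (29.7 and 16.6 CPM against 6.63 and 6.2 CPM), beside Itih3 of the score. Among satellite glia and non-myelinating Schwann cell genes, Cdh19 (20.4 and 46.3 CPM against 76 and 116 CPM) and Ngfr (179 and 226 CPM against 594 and 503 CPM) were lower, and Sox10, which all myelinating glia express, was not called (210.4 and 186 CPM against 258 and 277 CPM). In the 60 highest-scoring spots of each area, Irx1, Irx3 and Irx5, transcription factors of caudal brain regions, were lower than HC in all 3 TN areas, with an edgeR adjusted p of 0.976 for Irx1, which had 3 (TN1), 3 (TN2), 12 (TN3) and 16 (HC) UMIs, so few that counting error is large.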
